A study of Arabidopsis thaliana with 24 samples.

Results

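The genes of 10 proteins of the nucleolus and of small nucleolar ribonucleoprotein particles (snoRNPs) were followed in Arabidopsis thaliana plants with and without the protein DXO1. The set is a list of gene names, with no measured value in its rule, drawn up with earlier results of these data known, and it holds 10 of the 37184 loci in the count files. It comprises NUC1 (AT1G48920) and NUC2 (AT3G18610), FIB1 (AT5G52470) and FIB2 (AT4G25630), NOP56 (AT1G56110), NOP58-1 (AT5G27120) and NOP58-2 (AT3G05060), CBF5 (AT3G57150), NSN1 (AT3G07050) and PES (AT5G14520). The RefSeq annotation (TAIR10.1) places FIB1 on chromosome 5 at 21294147 to 21296819, FIB2 on chromosome 4 at 13074090 to 13076432 and CBF5 on chromosome 3 at 21153815 to 21156075. It calls both NOP58 genes and NOP56 NOP56-like pre-RNA processing ribonucleoproteins, so the NOP58 numbering is a working name.

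RNA came from 21-day-old soil-grown plants in long days, and libraries were made from the 3′ ends of polyadenylated transcripts. Col-0 is the wild type and dxo1-2 is a mutant of the DXO1 gene. The other 4 genotypes all carry dxo1-2 plus a DXO1 construct driven by the 35S promoter, a strong and broadly active viral promoter. They are 35S::DXO1(wt) dxo1-2, 35S::DXO1(E394A/D396A) dxo1-2 with a catalytic-site change, 35S::DXO1(ΔN194) dxo1-2 without the N-terminal residues, and 35S::DXO1(ΔN194/E394A/D396A) dxo1-2 with both changes. They are called here the DXO1(wt), DXO1(E394A/D396A), DXO1(ΔN194) and DXO1(ΔN194/E394A/D396A) lines. How many independent lines stand behind each construct is not stated, so a change particular to one line and an effect of its construct cannot be told apart. Each genotype has 4 libraries, 24 in all, and the labels do not say whether replicates are separate plants, so p-values measure the spread between these samples, which may be technical.

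Ribosomal RNA (rRNA) is made in the nucleolus as a long precursor that is cut, chemically modified and folded onto ribosomal proteins. Box C/D snoRNPs, built on fibrillarin, NOP56 and NOP58, place methyl groups on rRNA at sites chosen by a guide RNA. Box H/ACA snoRNPs, in which CBF5 is the catalytic subunit, turn uridine into pseudouridine. Nucleolin (NUC1 and NUC2) acts on rRNA genes and early precursors, while pescadillo (PES) and the GTPase NSN1 belong to the maturation of the large ribosomal subunit.

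The 250 bases before the annotated start are printed for 5 genes, because these genes span the responses described below: FIB1, FIB2 and CBF5 separated the genotypes, NOP58-1 changed with wide scatter and NUC1 hardly moved. Sequence and annotation are from RefSeq, build TAIR10.1. Capitals mark the telo-box (AAACCCTA) and either form of site II (TGGGCC or TGGGCT), searched on both strands, which are known promoter elements of plant ribosomal protein genes. The windows are chr5:21293897-21294146 for FIB1, chr4:13073840-13074089 for FIB2 and chr1:18097831-18098080 for NUC1, all on the plus strand. NOP58-1 lies at chr5:9540611-9540860 on the plus strand and CBF5 at chr3:21156076-21156325 on the minus strand, each printed 5′ to 3′ in the direction of the gene.
FIB1: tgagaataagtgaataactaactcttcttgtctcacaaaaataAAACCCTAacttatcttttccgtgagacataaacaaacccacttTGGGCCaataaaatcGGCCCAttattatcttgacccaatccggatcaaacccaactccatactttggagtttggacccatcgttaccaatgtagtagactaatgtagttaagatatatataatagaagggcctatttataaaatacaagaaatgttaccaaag
FIB2: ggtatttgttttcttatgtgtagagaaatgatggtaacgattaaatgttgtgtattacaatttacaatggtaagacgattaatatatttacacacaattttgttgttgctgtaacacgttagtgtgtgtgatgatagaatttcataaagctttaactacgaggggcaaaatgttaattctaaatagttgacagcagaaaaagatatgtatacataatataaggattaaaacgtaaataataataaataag
CBF5: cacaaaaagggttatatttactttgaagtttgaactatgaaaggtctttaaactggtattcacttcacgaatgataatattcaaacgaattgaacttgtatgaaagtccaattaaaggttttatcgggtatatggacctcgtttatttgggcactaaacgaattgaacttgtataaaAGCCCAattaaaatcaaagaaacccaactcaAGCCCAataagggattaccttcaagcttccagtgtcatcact
NOP58-1: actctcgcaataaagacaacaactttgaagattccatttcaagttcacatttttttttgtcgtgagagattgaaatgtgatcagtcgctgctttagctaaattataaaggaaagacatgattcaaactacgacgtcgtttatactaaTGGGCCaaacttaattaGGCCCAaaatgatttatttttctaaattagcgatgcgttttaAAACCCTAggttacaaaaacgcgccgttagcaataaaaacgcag
NUC1: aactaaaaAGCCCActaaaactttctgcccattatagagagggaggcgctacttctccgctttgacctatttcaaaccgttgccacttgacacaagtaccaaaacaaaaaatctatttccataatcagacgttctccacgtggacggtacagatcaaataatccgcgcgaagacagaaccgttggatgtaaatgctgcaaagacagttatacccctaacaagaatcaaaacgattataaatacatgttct

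A telo-box stood in the window of 4 of the 10 genes (FIB1, NOP56, NOP58-1 and NSN1), against 4.49% of 27443 promoter windows in the genome. A site II form stood in 7 of 10, against 19.2% of all windows, and both elements in FIB1, NOP56 and NOP58-1, against 1.36%. FIB2 and NUC2 held neither. Among 58 other listed nucleolar genes the telo-box occurred in 12.1%, a site II form in 50.0% and both in 6.90%. No matches overlapped one another in these windows. A match is a description of the letters in the window and not evidence of a bound factor.

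Levels here are CPM, counts scaled to library size and adjusted by the trimmed mean of M values (TMM). Library totals ran from 1270033 to 3490594 counts, and none of the 36 pairs of libraries within a genotype held identical values. DXO1 itself (AT4G17620) stood at 15.6 ± 2.97 CPM (SD, n = 4) in Col-0, at 3.36 ± 0.645 in dxo1-2, at 12.2 ± 1.24 in the DXO1(wt) line and at 18.4 ± 2.43 in the DXO1(E394A/D396A) line. In the DXO1(ΔN194) and DXO1(ΔN194/E394A/D396A) lines it was 4.45 ± 1.77 and 5.14 ± 1.71 CPM, ranges that overlap dxo1-2. Whether construct transcripts are all counted at this locus is not stated, so loss of the N-terminus and a low transcript level cannot be told apart in any result on the truncated lines.  In bulk tissue, fewer cells of a type and less RNA per cell cannot be told apart. Of the 10 genes, 8 passed the filter on low counts and were tested with edgeR's quasi-likelihood test over 13592 genes, with Benjamini-Hochberg adjustment and a threshold of 0.05.

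The 3 genes FIB1, FIB2 and CBF5 were high in dxo1-2 and in both truncated lines, and low in Col-0 and in both full-length lines. FIB1 is with FIB2 a fibrillarin gene of this set, and fibrillarin is the methyltransferase of box C/D particles. It stood at 79.0, 88.5, 68.1 and 98.6 CPM in the 4 Col-0 libraries. In dxo1-2 it stood at 219.7, 261.1, 221.3 and 241.0 CPM. In the DXO1(wt) line it was 53.2, 61.9, 55.6 and 64.3 CPM. Every dxo1-2 library was above every Col-0 and every DXO1(wt) library. In the DXO1(E394A/D396A) line FIB1 was 73.4, 74.3, 50.5 and 71.5 CPM, in the DXO1(ΔN194) line 276.8, 262.9, 287.5 and 275.9 CPM, and in the DXO1(ΔN194/E394A/D396A) line 232.3, 258.2, 242.2 and 227.9 CPM. The truncated lines overlapped neither Col-0 nor a full-length line.

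FIB2, the paralog of FIB1, separated the genotypes in the same way. Its 4 libraries stood at 2.84, 7.56, 2.04 and 4.18 CPM in Col-0, against 30.1, 21.98, 27.1 and 23.7 CPM in dxo1-2. It was between 3.25 and 7.14 CPM in the DXO1(wt) line and between 3.18 and 6.83 CPM in the DXO1(E394A/D396A) line. In the truncated lines it was between 31.7 and 37.8 CPM in the DXO1(ΔN194) line and between 26.8 and 38.7 CPM in the DXO1(ΔN194/E394A/D396A) line. High and low genotypes did not overlap.

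CBF5, the pseudouridine synthase of H/ACA particles, stood at 17.97, 22.7, 20.4 and 36.4 CPM in Col-0 and at 76.5, 68.6, 101.2 and 78.6 CPM in dxo1-2. It was 20.7, 25.2, 23.2 and 28.2 CPM in the DXO1(wt) line and 29.0, 29.2, 25.1 and 27.5 CPM in the DXO1(E394A/D396A) line. In the DXO1(ΔN194) line it was 101.8, 98.2, 112.0 and 128.3 CPM, and in the DXO1(ΔN194/E394A/D396A) line 99.0, 101.2, 92.9 and 93.6 CPM. As for the fibrillarins, dxo1-2 and both truncated lines sat above the other 3 genotypes without overlap.

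**Figure D1:**
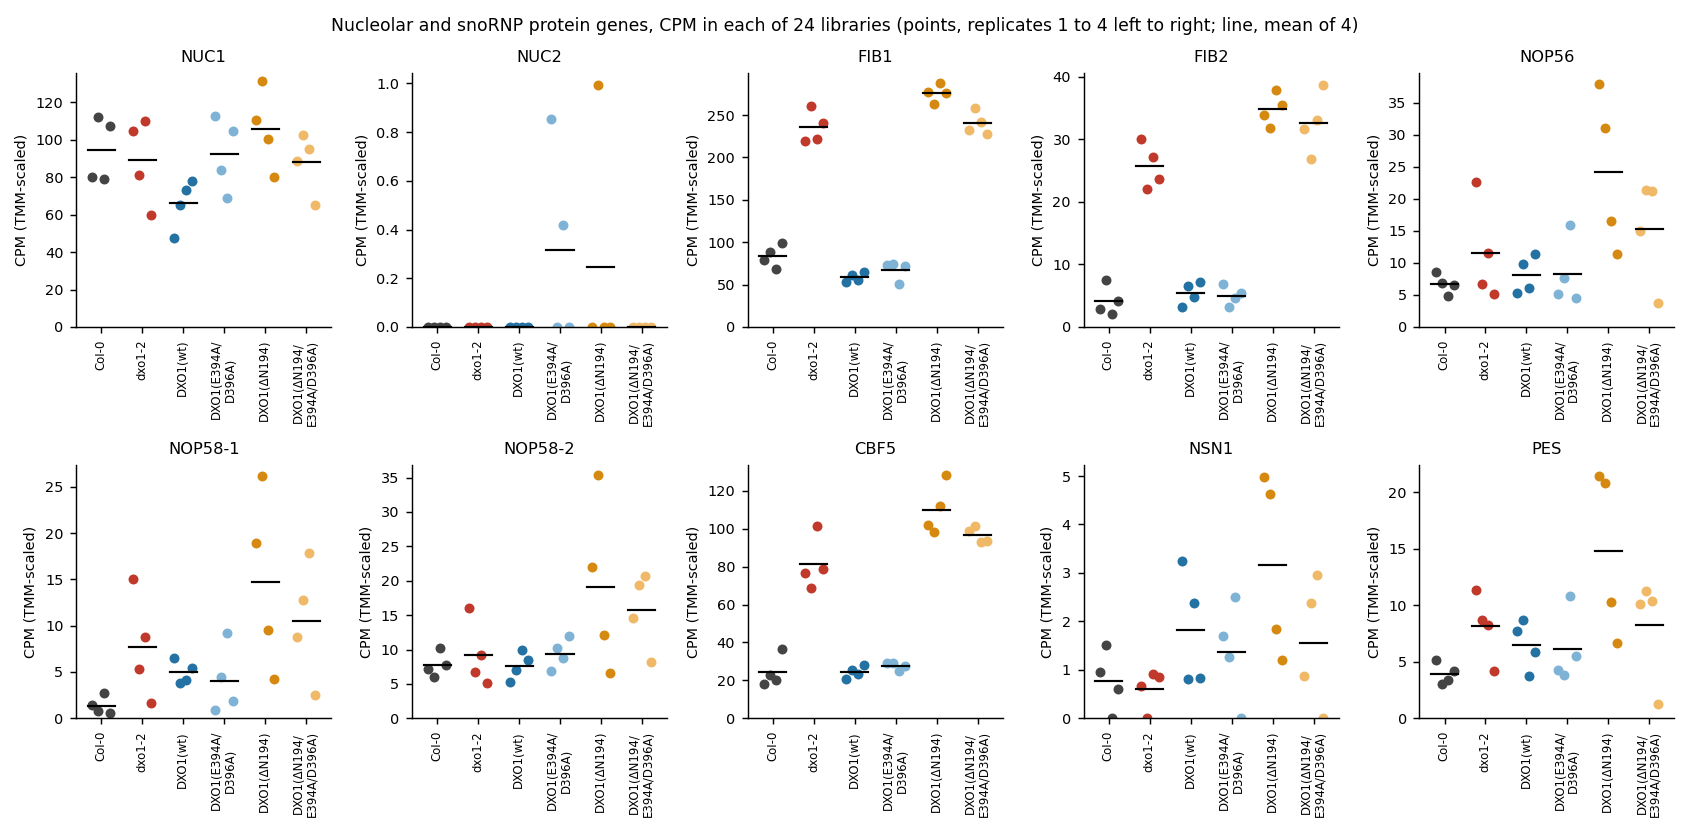
TMM-scaled CPM of the 10 genes, 1 panel each with its own vertical axis starting at 0, for the 6 genotypes; points are libraries (replicates 1 to 4 from left to right) and lines are means of 4. FIB1, FIB2 and CBF5 form a high group (dxo1-2 and both ΔN194 lines) and a low group (the other 3), while NOP56, both NOP58 genes and PES scatter within genotypes.

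In dxo1-2 against Col-0, 4 of the 8 tested genes rose and none fell, where 14.7% of all tested genes were called higher and 7.93% lower. FIB1 rose 2.82-fold (log2 fold change 1.50, SE 0.148, edgeR adjusted p = 3.33e-08) and FIB2 rose 6.39-fold (2.68, SE 0.295, adjusted p = 1.61e-07). CBF5 rose 3.34-fold (1.74, SE 0.190, adjusted p = 1.45e-07). In these 3 genes the libraries did not overlap, which held in this direction for 15.6% of all tested genes. The fourth, NOP58-1, a core protein of C/D particles, had a log2 fold change of 2.57 with the wide SE of 0.751 (edgeR adjusted p = 0.0135), and its libraries overlapped. Without replicate 1 of dxo1-2 it was 1.99 with an adjusted p of 0.0756, so that this call rests on that library. NOP58-1 had 1 to 4 counts in a Col-0 library. It passed the filter on low counts mainly through libraries of dxo1-2 and the truncated lines, where it was high. PES (1.05, adjusted p = 0.136), NOP56 (0.86, adjusted p = 0.244), NOP58-2 (0.34, adjusted p = 0.635) and NUC1 (-0.07, adjusted p = 0.860) did not pass. The median log2 fold change was 1.28 over the 8 genes and 0.02 over all tested genes.

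Full-length DXO1 was set against dxo1-2 to ask what the protein restores with and without its catalytic site. In the DXO1(wt) line 3 of 8 genes fell, against 18.5% of all genes called lower, and these were FIB1 (fell by 2.00 on the log2 scale, SE 0.149, edgeR adjusted p = 2.12e-10), FIB2 (fell by 2.24, SE 0.259, adjusted p = 2.30e-07) and CBF5 (fell by 1.74, SE 0.183, adjusted p = 4.83e-08). In the DXO1(E394A/D396A) line FIB1, FIB2 and CBF5 were again the 3 that fell. Their log2 fold changes were -1.81, -2.40 and -1.56, with edgeR adjusted p of 1.86e-09, 5.71e-07 and 5.79e-07 and 15.1% of all genes called lower. These comparisons share the dxo1-2 libraries with the one against Col-0. No library of these lines overlapped dxo1-2 for the 3 genes, as was so for 18.9% and 13.2% of all genes in that direction. Between the 2 full-length lines none of the 8 genes was called by edgeR or by DESeq2 (1 at an unadjusted p under 0.05, and 6.28% of all genes called), and the difference in FIB1 was 0.19 with a 95% interval from -0.11 to 0.48.

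With truncated DXO1 no gene fell below dxo1-2 in the test. In the DXO1(ΔN194) line against dxo1-2 none of the 8 genes was called by edgeR or DESeq2 (3 at an unadjusted p under 0.05, and 3.03% of all genes called in either direction). FIB1 and FIB2 were nevertheless above dxo1-2 in every library, which 3.17% of all genes were, with log2 differences of 0.23 and 0.42 (95% intervals -0.05 to 0.50 and -0.03 to 0.86). CBF5 differed by 0.43 (95% interval 0.10 to 0.77, edgeR adjusted p = 0.176). Leaving out 1 library changed this count in 2 cases. It became 2 genes without replicate 1 of dxo1-2 (NOP56 and NOP58-2) and 1 without replicate 4 of the DXO1(ΔN194) line (NOP58-2). Calls over all genes also rose in these fits, to 867 of 13816 and 1222 of 14043, from 412 of 13592 with every library. In the DXO1(ΔN194/E394A/D396A) line none was called either, with 0 by DESeq2, 0 at an unadjusted p under 0.05 and 0.795% of all genes called, and the log2 differences of FIB1, FIB2 and CBF5 were 0.03, 0.32 and 0.25. Between the truncated lines no gene was called (0 at an unadjusted p under 0.05, 0 by DESeq2, 2.11% of all genes called). FIB1 was lower with the substitutions in every library, as were 2.78% of all genes, by 0.20 on the log2 scale (adjusted p = 0.444).

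**Figure D2:**
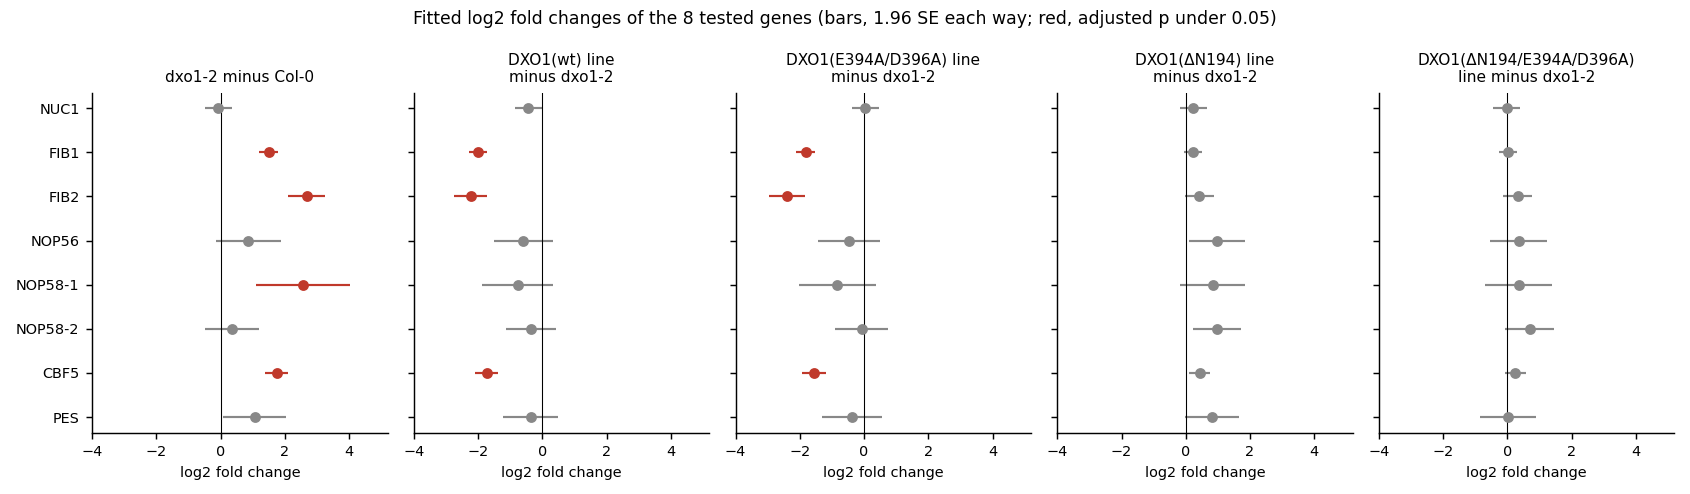
Fitted log2 fold changes (horizontal axis) of the 8 tested genes in 5 comparisons, with bars for 95% intervals; red marks an edgeR adjusted p under 0.05. FIB1, FIB2 and CBF5 are red in the first 3 panels, and no gene is red in the 2 panels for truncated DXO1.

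Against Col-0, 7 of 8 genes rose in the DXO1(ΔN194) line (16.8% of all genes called higher) and 4 rose in the DXO1(ΔN194/E394A/D396A) line (17.6%). Both counts include NOP58-1, which passed the filter mainly through genotypes where it was high. In 6 and 3 of the 8 genes the libraries did not overlap Col-0, as in 15.3% and 17.8% of all genes. In the DXO1(ΔN194) line FIB2 rose 8.55-fold, CBF5 4.51-fold and FIB1 by 1.72 on the log2 scale, and NUC1 was the gene that did not pass (0.16, adjusted p = 0.605). In the DXO1(ΔN194/E394A/D396A) line FIB1 (1.52), FIB2 (2.99), CBF5 (1.99) and NOP58-1 (2.91, adjusted p = 0.00323) rose. NOP56 (adjusted p = 0.0680), NOP58-2 (0.0609) and PES (0.106) were then not called, and leaving out replicate 4 brought all 3 past the threshold. In that fit 2111 of 14085 genes were called higher. In neither full-length line was a gene called against Col-0 by edgeR, with 3 and 2 genes at an unadjusted p under 0.05, 1 and 0 by DESeq2, and 1.03% and 5.36% of all genes called. The DXO1(wt) line had FIB1 below Col-0 in every library, by 0.51 on the log2 scale (edgeR adjusted p = 0.0969), as were 6.27% of all genes, and NOP58-1 above it in every library (1.79, not called), as were 7.80%. DESeq2 called the difference in FIB1 (adjusted p = 0.00709), and so did an edgeR fit of these 2 genotypes alone (adjusted p = 0.0225), where 2.44% and 11.4% of the genes tested were called.

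Each truncated line was also set against its full-length counterpart. All 8 tested genes were called higher in DXO1(ΔN194) than in DXO1(wt) (17.4% of all genes called higher), and 3 in DXO1(ΔN194/E394A/D396A) than in DXO1(E394A/D396A) (17.6%). FIB1 rose by 2.23 in the former pair (edgeR adjusted p = 1.27e-11) and by 1.84 in the latter (adjusted p = 6.45e-10). The 3 genes of the second count were FIB1, FIB2 and CBF5, whose libraries did not overlap, as in 15.3% of all genes. NUC1 passed in the first pair (0.68, edgeR adjusted p = 0.0156) and not in the second (-0.06). The test of the difference between the pairs, the interaction, called none of the 8 genes (1 at an unadjusted p under 0.05, 0 by DESeq2, 1.44% of all genes called). For NUC1 it was -0.74 (SE 0.302, adjusted p = 0.284). In the first pair 5 genes did not overlap, as in 16.1% of all genes. Without replicate 2 of the DXO1(ΔN194) line the count of called genes was 4, beside 2420 of 13660 genes called higher.

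NOP56 and both NOP58 genes, the structural core of C/D particles, and PES varied widely inside genotypes. NOP58-1 ran from 0.597 to 2.73 CPM in Col-0 and stood at 15.0, 5.33, 8.74 and 1.69 CPM in dxo1-2. It stood at 19.0, 26.1, 9.55 and 4.22 CPM in the DXO1(ΔN194) line. The highest library was over 6 times the lowest in that line, and dxo1-2 overlapped Col-0. NOP56 was 6.67 ± 1.53 CPM in Col-0, 11.5 ± 7.97 in dxo1-2 and 24.2 ± 12.3 in the DXO1(ΔN194) line. NOP58-2 was 7.78 ± 1.77, 9.24 ± 4.83 and 19.0 ± 12.6 CPM in the same order, and PES was 3.95 ± 0.962, 8.13 ± 2.94 and 14.8 ± 7.48 CPM. Differences between genotypes took up 97.8% of the variance of log2 CPM of FIB1, 95.8% of CBF5 and 93.8% of FIB2, but 52.7% of NOP58-1, 41.8% of NOP56, 39.8% of NOP58-2, 37.7% of PES and 36.2% of NUC1.

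These 4 genes scattered together. Over the 24 libraries, the deviations of log2 CPM from the genotype means correlated at 0.629 to 0.850 in the 6 pairs among NOP56, NOP58-1, NOP58-2 and PES, and at -0.456 to 0.0288 between them and FIB1, FIB2 or CBF5. The grouping was made after the values were seen, and the points share their library and depth. A property of the whole library moved with this scatter. The length slope of a library, the change in log2 CPM relative to the mean library for each doubling of exon length over 13506 genes, ran from -0.651 to 0.569. Within genotypes it correlated with NOP58-1 at 0.893, NOP56 at 0.819, PES at 0.802 and NOP58-2 at 0.688, and with FIB1 at -0.519, CBF5 at -0.320, FIB2 at -0.235 and NUC1 at 0.224. Exon lengths were 1899 to 2164 bases in NOP56, both NOP58 genes and PES. They were 2261 bases in CBF5, 2089 in NUC1, 1380 in FIB1 and 1339 in FIB2. The library of dxo1-2 with the highest NOP58-1 also had the highest slope of the 4 (0.117), and the one with the lowest had the lowest (-0.554). With the length trend removed, dxo1-2 against Col-0 again had 4 genes called, NOP58-1 with an edgeR adjusted p of 0.00507. In that fit 3454 of 13592 genes were called in either direction. The part of RNA quality or library preparation in these slopes was not tested.

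**Figure D3:**
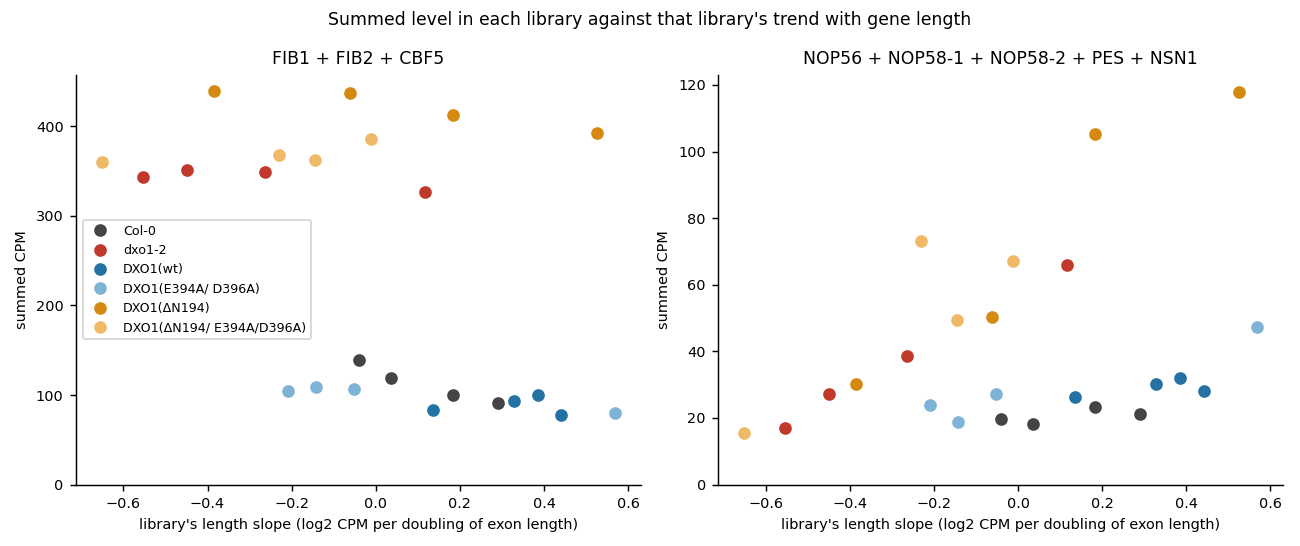
Summed CPM in each of the 24 libraries (vertical axis) against the length slope of that library (horizontal axis), for FIB1, FIB2 and CBF5 on the left and for NOP56, both NOP58 genes, PES and NSN1 on the right; colours are genotypes. The left panel shows 2 levels of genotypes, with the sum lower at higher slopes within Col-0 and the DXO1(ΔN194) line, and on the right libraries of 1 genotype tend to climb with the slope.

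NUC1, the main nucleolin gene, was the member that moved least between Col-0 and dxo1-2. It stood at 79.9, 111.9, 79.0 and 107.5 CPM in Col-0 and at 104.9, 81.3, 109.9 and 60.0 CPM in dxo1-2. The DXO1(wt) line had the lowest mean, with 47.6, 64.9, 73.4 and 78.1 CPM, every library below those of Col-0, as in 6.27% of all genes. That difference was -0.52 on the log2 scale (edgeR adjusted p = 0.279). It passed in an edgeR fit of those groups alone (-0.51, adjusted p = 0.0380), where 11.4% of the genes tested were called. The difference from dxo1-2 was -0.44 (adjusted p = 0.115). It passed with the length trend removed (-0.63, adjusted p = 0.0145), where 2234 of 13592 genes were called lower. NUC2 had counts in 3 of 24 libraries, 5 counts in all, and reached 0.992 CPM at most. NSN1 was at 0 in 4 libraries and had at most 14 counts, or 4.99 CPM, in the others. A count of 0 allows up to 3 counts, which is 0.859 CPM in the deepest and 2.36 CPM in the shallowest library, so differences in NUC2 were not detectable at this depth. NSN1 did not pass the filter on low counts either. Its mean was highest in the DXO1(ΔN194) line, at 3.16 ± 1.92 CPM (2 to 14 counts), and 0.608 to 1.82 CPM in the other genotypes. These differences were not tested in the main fit.

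The ranks of the genotypes were alike in the responding genes. From high to low, FIB1 had DXO1(ΔN194) at 275.8 ± 10.1 CPM, DXO1(ΔN194/E394A/D396A) at 240.2 ± 13.5, dxo1-2 at 235.8 ± 19.5, Col-0 at 83.5 ± 13.01, DXO1(E394A/D396A) at 67.4 ± 11.3 and DXO1(wt) at 58.8 ± 5.18. The DXO1(ΔN194/E394A/D396A) line and dxo1-2 did not differ beyond their spread, and nor did the last pair. CBF5 had the same first 3 places, at 110.1 ± 13.5, 96.7 ± 4.02 and 81.2 ± 14.0 CPM, followed by 3 genotypes between 24.3 and 27.7 CPM that did not differ beyond their spread. In FIB2 the first 3 places were again the same, at 34.8 ± 2.57, 32.6 ± 4.91 and 25.7 ± 3.61 CPM, above 3 genotypes between 4.16 and 5.42 CPM.

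Each paralog pair was also described by the share of its counts held by 1 gene, which does not depend on library size. The exon lengths are close within the fibrillarin pair (1380 and 1339 bases) and the NOP58 pair (2114 and 2106 bases). Coding sequences of FIB1 and FIB2 are 80.6% identical and those of the NOP58 genes 81.0%, but over the last 400 transcript bases identity is 43.7% and 48.9%, with longest shared runs of 17 and 11 bases. The FIB2 share was 4.58% of FIB1 plus FIB2 in Col-0 and 9.92% in dxo1-2, and the share of FIB1 differed by -5.34 points (two-sided exact permutation test, p = 0.0571, adjusted p = 0.429 over 15 tests). It was 8.30% and 7.02% in the DXO1(wt) and DXO1(E394A/D396A) lines, and 11.2% and 12.0% in the truncated lines. NOP58-1 held 14.0% ± 6.12 (SD, n = 4) of its pair in Col-0 and 41.6% ± 11.3 in dxo1-2, with no overlap (exact p = 0.0286, the smallest that 4 against 4 libraries can give, adjusted p = 0.429). In the DXO1(wt) line it held 39.7%, and in the DXO1(E394A/D396A) line 26.5%. None of the 15 tests passed after adjustment. Even the share at the smallest possible p had an adjusted p of 0.429, so these tests could not decide whether a single share differs.

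**Figure D4:**
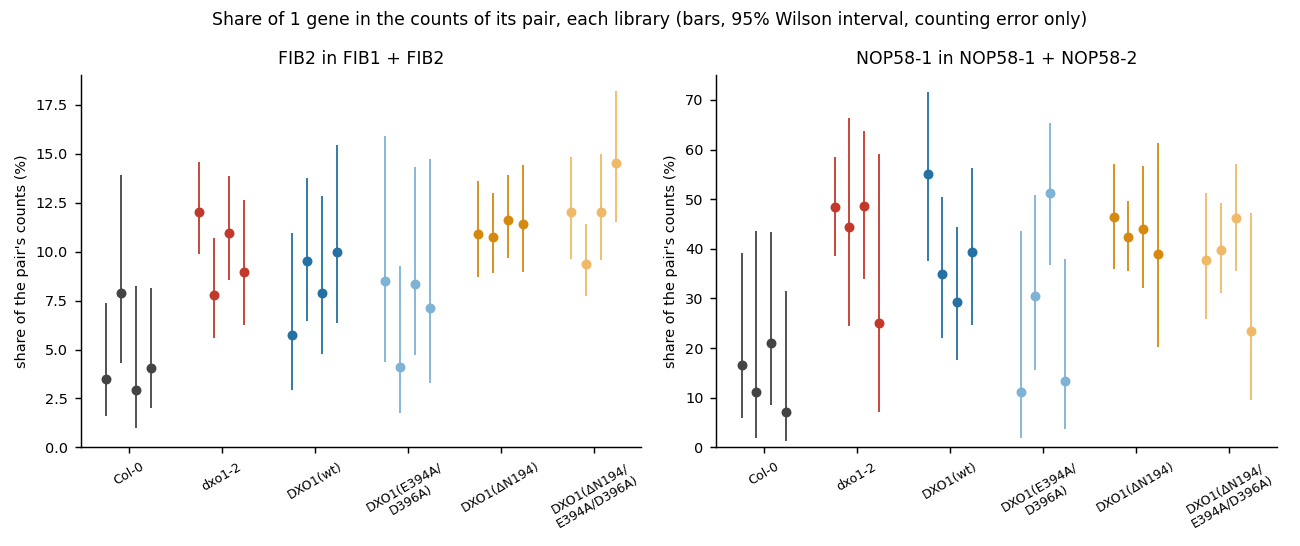
Share of the counts of a paralog pair held by FIB2 (left) and by NOP58-1 (right), in percent, for each library of the 6 genotypes; bars are 95% Wilson intervals and cover counting error only. All 4 Col-0 libraries lie below the dxo1-2 libraries for NOP58-1, with wide intervals; for FIB2, Col-0 (up to 7.87%) overlaps dxo1-2 (from 7.77%) and lies below both truncated lines (from 9.40%).

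Genes that overlap the members had few counts of their own, except RPM1 beside NSN1. FIB1 and FIB2 each host a small nucleolar RNA gene on the same strand, with at most 1 and 4 counts in a library. The genes opposite NUC1 and NOP56 had at most 1 and 0 counts. RPM1 (AT3G07040), which overlaps NSN1 on the same strand by 201 bases, had up to 29 counts in a library. It had 229 counts in all, against 87 for NSN1, and whether reads were split between them is not stated.

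Other nucleolar genes were read from lists drawn up with earlier results of these data known. Of 58 such genes 40 were tested, and in dxo1-2 against Col-0 16 of them rose and none fell, beside 14.7% and 7.93% of all tested genes. Their median log2 fold change was 0.86, against 0.02 over all tested genes. The other snoRNP proteins gave 5 of 6 tested, among them an H/ACA subunit of the Gar1/Naf1 kind (AT3G03920), which went from 41.8 ± 13.1 to 195.5 ± 35.4 CPM (log2 fold change 2.23, edgeR adjusted p = 4.94e-08), and NOP10, another H/ACA subunit, which went from 20.0 ± 6.02 to 58.0 ± 11.2 CPM (1.53, adjusted p = 4.56e-05). An L7Ae family protein, AT5G08180, rose by 1.78, and 2 more of that family, AT4G12600 and AT5G20160, rose by 1.55 and 1.44. NAF1, an H/ACA assembly factor, had too few counts to test, and AT5G52490, a further gene of the fibrillarin family, had 0 counts in every library.

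Of the rRNA processing and assembly factors 8 of 26 tested rose, and these included IMP4 (1.53), the Brix domain proteins AT3G15460 (2.01) and AT1G52930 (1.65), and DIM1A, an rRNA adenine dimethylase (1.38). None of 3 tested partners of PES and NSN1-like GTPases was called by edgeR or DESeq2 (0 at an unadjusted p under 0.05, median 0.73). Of the 4 nucleolar HD2 histone deacetylases HDA3 rose by 1.54 (edgeR adjusted p = 0.00646) and HDT4 by 0.92 (adjusted p = 0.0363), a call that HDT4 lost without the filter (adjusted p = 0.0708) and in 6 of 8 fits that leave out 1 library. Of the listed RNA polymerase I genes 1 could be tested, the TFIIB zinc-binding protein AT3G25940, which rose by 1.55. In the DXO1(wt) line against dxo1-2 15 of the 40 fell, all 6 snoRNP proteins among them, and in the DXO1(E394A/D396A) line 15 fell, beside 18.5% and 15.1% of all tested genes called lower. In neither truncated line was any of the 40 called against dxo1-2 by edgeR, where 3.03% and 0.795% of all tested genes were called. At an unadjusted p under 0.05 there were 8 and 1 of the 40, and DESeq2 called 1 and 0.

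**Figure D5:**
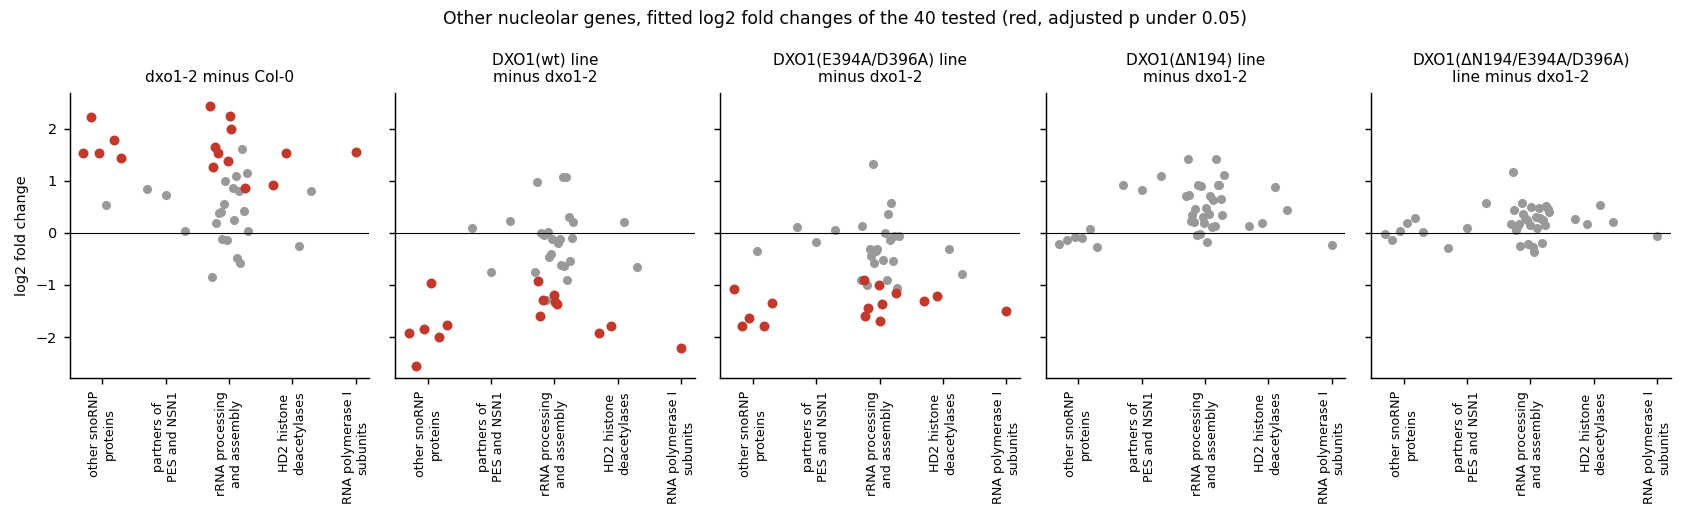
Fitted log2 fold changes (vertical axis) of the 40 tested genes of 5 other nucleolar lists, in the same 5 comparisons as for the 8 genes; points are genes and red marks an edgeR adjusted p under 0.05. Red points are above 0 in the first panel, below 0 in the next 2 and absent for truncated DXO1.

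Markers of tissue makeup were read beside these changes. Of 5 genes of green tissue (Rubisco small subunit, Rubisco activase and light-harvesting genes) 4 fell in dxo1-2, LHCA3 by 0.80 and RBCS3B by 0.70 on the log2 scale, and reads may be shared among near-identical copies. Their summed level was 69620 to 84960 CPM in Col-0, 49200 to 55070 in dxo1-2, 63500 to 66190 in the DXO1(wt) line and 64700 to 83400 in the DXO1(E394A/D396A) line. The DXO1(ΔN194) and DXO1(ΔN194/E394A/D396A) lines were at 42240 to 46220 and 49440 to 57720 CPM, so this sum was low in the genotypes where the fibrillarins and CBF5 were high. Its part in those results was not tested. The 7 markers of dividing cells all had counts in every genotype and summed to 9.83 to 13.6 CPM in Col-0 and 9.30 to 17.0 CPM in dxo1-2, ranges that overlap. The sum was 9.76 to 21.5 CPM in the DXO1(wt) line and between 8.43 and 17.5 CPM in the other 3 lines. SYP111, the only one of the 7 that could be tested, was called higher in the DXO1(wt) line than in dxo1-2 (log2 fold change 1.28, edgeR adjusted p = 0.0108), where the fibrillarins and CBF5 were lower, and its part in those results was not tested. Root markers were at 0 for 3 of 4 genes in every library, and the fourth, CASP1, had 5 counts in all. Of 3 meristem markers STM was at 0 throughout and WUS had 1 count. The third, ANT, had counts in all 24 libraries, 75 in total and at most 9 in a library.

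The 5 genes whose log2 CPM over the 24 libraries was most like the mean of the tested members were AT1G74050, a ribosomal protein of the L6 family (Pearson's r = 0.948), P5CR (0.945), EMB3010, a ribosomal protein of the S6e family (0.940), MOS4 (0.937) and AVP1 (0.933). The libraries of these correlations fall into the 6 genotypes, so the points are not independent.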

How the data were processed

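RNA from 24 libraries, 4 for each of 6 genotypes, was read by 3′ RNA-seq with barcoded oligo(dT) primers carrying molecular identifiers, per the labels' protocols. The deposited files hold the authors' whole-number counts per locus, 37184 loci a library, with no line that names no gene. STAR 2.7.8a, DESeq2 and the build TAIR10 are named in the submitters' processing notes. Whether identifiers were collapsed, whether strand was used and which annotation was counted are not given in the sources used here. Of the loci, 36899 matched RefSeq TAIR10.1, which was used for names, lengths and promoter windows only.

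Counts were normalised by TMM and fitted in edgeR 4.0.16 (R 4.3.3) with filterByExpr, all 24 libraries in 1 quasi-likelihood fit and 14 comparisons, and p-values were adjusted over the 13592 genes tested. SE is the log2 fold change divided by the square root of F. Correlations used log2 CPM with a prior count of 2. Intervals of shares are 95% Wilson intervals and, like limits from a count of 0, cover counting error only. Alternatives were leaving the filter out, at least 10 counts in every library, a replicate block, DESeq2 1.42.0, scaling by median of ratios, organelle genes left out, a length trend removed (lowess, span 0.3), only the groups compared, and each library left out. All 10 members were named, with every called gene of another list up to 5, else the 4 with the smallest p, and the 5 most alike genes. The members and lists were chosen with earlier results of these data known. The fit was tested on simulated counts.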

Additional observations from a re-analysis of the deposited data

Results flagged for a closer look

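Of 72 groups of 4 libraries checked, 3 had a library far from the other 3, and chance alone flags about 1 in 20 groups. NUC2 stood at 0.992 CPM (3 counts) in replicate 2 of the DXO1(ΔN194) line and at 0 in the others. FIB1 stood at 50.5 CPM in replicate 3 of the DXO1(E394A/D396A) line, against 71.5 to 74.3 CPM in the others, and that library had the highest length slope of all 24 (0.569). PES stood at 1.25 CPM in replicate 4 of the DXO1(ΔN194/E394A/D396A) line, the library with the lowest length slope (-0.651). The part of the slope in these values was not tested.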

How the results depend on the processing

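Over the 8 alternatives other than leaving out a library, 804 of 814 values for single genes kept their direction and their side of the threshold and 10 came to pass it; leaving out 1 library kept 939 of 960, with 8 gained and 13 lost, and none reversed. FIB1, FIB2 and CBF5 kept their calls in all 235 values of the 5 comparisons of dxo1-2 or a truncated line with Col-0 and of a full-length line with dxo1-2, where they could be tested. With at least 10 counts in every library 3 members (NUC1, FIB1 and CBF5) among 6426 genes could be tested. Of these 3, 2 were called in dxo1-2, in the DXO1(ΔN194) line and in the DXO1(ΔN194/E394A/D396A) line against Col-0 (at least 21.7% of all genes were called higher in each). In the DXO1(ΔN194) line 1 was called higher than in dxo1-2 (1.73% of all genes) and 3 higher than in DXO1(wt) (23.7%). Of the other nucleolar genes 6 were called higher in dxo1-2 than in Col-0, where 21.7% of all genes were. How many of these nucleolar genes passed this filter is not given here, so the 6 cannot be set against that share. With the length trend removed 7 were called higher in the DXO1(ΔN194/E394A/D396A) line than in Col-0, beside 2375 of 13592 genes. For DXO1(wt) against Col-0 DESeq2 called 1 (2.44% of all genes) and the fit of those groups alone 2 (11.4%). The cause of these changes was not tested.

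Leaving out 1 library gave 3 to 4 members in dxo1-2 against Col-0, 4 to 7 in the DXO1(ΔN194/E394A/D396A) line and 6 to 7 in the DXO1(ΔN194) line. Of all genes, 1634 of 14065 to 2030 of 13816 were called higher in the first of these comparisons. In the second 1991 of 14065 to 2251 of 13838 were, and in the third 1886 of 13853 to 2348 of 14043. Against DXO1(wt) the DXO1(ΔN194) line had 4 to 8 members, beside 2006 of 13827 to 2420 of 13660 genes called higher. Against dxo1-2 that line had 0 to 2. The 2 came without replicate 1 of dxo1-2, where 867 of 13816 genes were called. A fit without replicate 4 of the DXO1(ΔN194) line gave 1, with 1222 of 14043 genes called. With every library 412 of 13592 genes were called. For the other nucleolar genes in dxo1-2 against Col-0, leaving out 1 library gave 14 to 16, beside the same 1634 to 2030 genes called higher. Deviations of same-numbered libraries had a median correlation of 0.0342 over 60 pairs, and those of differently numbered libraries -0.0195 over 180. A replicate block raised the calls over all genes in dxo1-2 against Col-0 from 3072 to 3352 of 13592. These values do not settle whether replicate numbers pair the libraries. With a replicate block 4 members were called in dxo1-2 against Col-0, and no call of a member changed. Depth limits NUC2, NSN1 and the NOP58 shares, which rest on 8 to 186 counts a library.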
